A study of Mus musculus with 6 samples.

Results

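Expression of 35 genes used as astrocyte markers, Gfap among them, was set against the C57BL/6J strain in BTBR T+ Itpr3tf/J mice. The members were every non-control probe on the array whose gene name, in its old or current form, was one of those 35. They had 65 of the 41174 probes on the array, and 62 of these, covering all 35 genes, were bright enough to test among 30011 probes. The 35 genes are among 27373 gene names on the array. The 3 untested probes were 1 each for Slc4a4, Cd44 and Vim, which were at background (not well above it by the scanner's flag) on all 6 arrays and whose genes were measured by other probes.

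BTBR is an inbred strain with no corpus callosum and low sociability that serves as a mouse model of autism, and C57BL/6J is the common reference strain. RNA came from the whole prefrontal cortex of 3 mice of each strain, all male, 5 months old and given no drug, and each mouse had 1 one-colour array made from 0.5 µg of RNA with an integrity number of 9. The labels give the genotype BTBR T+ Itpr3tf/J to the BTBR mice but C57BL/6J as their background. They do not say that the 3 mice of a strain came from different litters or cages, so the p-values measure the spread between these animals only. Whole tissue was used, so fewer astrocytes and less RNA per astrocyte cannot be told apart in any value below.

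Astrocytes are the glial cells that clear glutamate and potassium from the space around synapses, move water at the end-feet on blood vessels and pass small molecules among themselves through gap junctions. The genes for these duties are called homeostatic here. When tissue is injured or inflamed, astrocytes become reactive: cytokines of the interleukin 6 family signal through the gp130 receptor and the transcription factor STAT3, and intermediate filament genes such as Gfap are switched on. In the healthy cortex most grey matter astrocytes hold little GFAP protein, while those at the pial surface and in white matter hold much. Metallothioneins are small cysteine-rich proteins that bind zinc and copper. Mt1 and Mt2 are induced by metals and glucocorticoids, most strongly in astrocytes, and Mt3 is found mainly in the brain, in astrocytes and in neurons that store zinc in their vesicles.

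Each level below is the log2 signal of a probe minus the 75th percentile of the same array, so 0 is that percentile, and levels of different probes cannot be set against each other. Strains were compared probe by probe with limma, and a probe is called where the Benjamini-Hochberg adjusted p over all 30011 probes was under 0.05. Of the 62 probes 3 were called, all lower in BTBR: Mt3, 1 probe of Gfap and Mt2. Of all tested probes 5.44% were called, 2.19% higher and 3.25% lower in BTBR, so 3 of 62 is close to the share on the array as a whole. The median difference over the 62 probes was 0.03 on the log2 scale, against 0.04 over all tested probes. At an unadjusted p under 0.05 there were 11 of 62 probes, against 16.8% of all. The 95% interval of a probe's difference reached a median of 0.36 to either side, between 0.23 and 1.11.

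The probes of the genes that carry these results are shown first, because several genes had probes on different stretches of their transcripts. The first 30 of the 60 bases are given for 5 of them, and the probe positions are on mm9, as in the file headers. The exons and untranslated regions that the probes lie in were not analysed here. The Gfap probes lie on the minus strand of chromosome 11, at 102751813-102751872 for the one annotated to transcript variant 1 and at 102748916-102748976 for the most downstream one. The remaining Gfap probe is annotated to transcript variant 2, and its 60 bases are placed across a span of 2450 bases, 102750787-102753236. The variant 1 probe lies inside that span. The 60 bases of the variant 2 probe are thus placed with a gap between them. A transcript read by that probe as placed does not hold all of the variant 1 probe's 60 bases. Which transcripts the downstream probe reads was not tested. A value at 1 probe is therefore not a value for all Gfap RNA. The metallothionein probes lie on the plus strand of chromosome 8, at 96677927-96677986 for Mt3, 96697371-96697430 for Mt2 and 96704011-96704070 for the first Mt1 probe.
Gfap variant 1: ggttatattaacAGAGCTAGCCTAtgctaa
Gfap downstream: tgctctatgcatatacgtaatgtcacctat
Mt3: acacagcctatgtaaatagtgctgggtgtc
Mt2: agaagcctagccttttttgtacaaccctga
Mt1: cctgctgtcccgtgggctgctccaaatgtg
The capitals in the Gfap variant 1 probe mark a run of 12 bases that occurs 2 times in it, at positions 13 and 49 counted from its 5′ end. It is the sole member probe with a repeated run of that length, which 190 of the 41174 probes (0.461%) hold. The metallothionein probes shared no run of bases longer than 7 with each other. The probes follow the reference sequence, so for every member lower or higher RNA and a strain variant within the probed bases cannot be told apart.

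Gfap, the main intermediate filament gene of astrocytes, was lower in BTBR at its variant 1 probe. The levels were 1.16, 0.95 and 1.65 in the C57BL/6J mice and -0.0060, 0.072 and 0.044 in the BTBR mice. The strains did not overlap, and the BTBR mice lay much closer together than the C57BL/6J mice. The means were 1.25 ± 0.36 and 0.04 ± 0.04 (SD, n = 3 per strain). The difference was -1.21 ± 0.19 (SE), a 2.32-fold lower signal, with a 95% interval of -1.67 to -0.76 and an adjusted p of 0.0153 in limma. It was -1.02 on slide 1, which held replicates 1 and 2 of each strain, and -1.60 on slide 2, which held replicate 3 of each.

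The other Gfap probes were lower in every BTBR mouse but did not pass the test. At the variant 2 probe the C57BL/6J mice had levels of -2.65, -2.39 and -1.92 and the BTBR mice -2.68, -2.98 and -2.66. At the downstream probe, printed in 10 spots on each array, they had -2.76, -2.56 and -2.41 against -2.99, -3.48 and -2.99. The strains are separated at both, but at the variant 2 probe the gap between the closest mice is very small. The differences were -0.46 ± 0.21 (limma adjusted p = 0.342) and -0.57 ± 0.18 (limma adjusted p = 0.155). The variant 1 signal relative to the mean of the other 2 probes was 0.70 lower on the log2 scale in BTBR, an exact two-sided permutation p of 0.1, the smallest that 3 mice against 3 allow. That ratio was chosen after the values were seen.

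**Figure D1:**
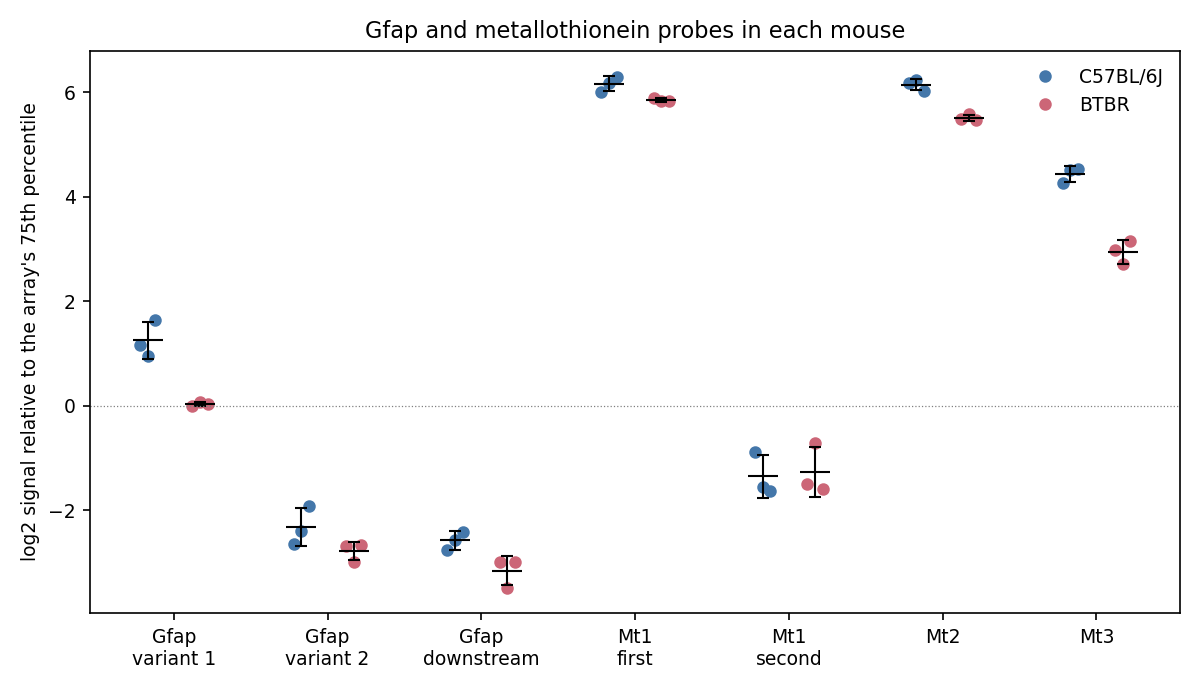
Log2 signal relative to the array's 75th percentile (vertical axis) for the 3 Gfap probes and the 4 metallothionein probes, 1 point per mouse, with the mean and SD of 3 mice as black bars. The strains are separated at every probe except the second Mt1 probe, and the gap is widest at Mt3 (-1.49) and Gfap variant 1 (-1.21).

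Mt3, the brain metallothionein, had the largest difference of the 62 probes. Its levels were 4.26, 4.52 and 4.53 in C57BL/6J and 2.97, 2.71 and 3.15 in BTBR. Every BTBR mouse was more than 1 log2 unit below every C57BL/6J mouse. The means were 4.44 ± 0.15 and 2.94 ± 0.22 (SD, n = 3 per strain). The difference was -1.49 ± 0.15 (SE), a 2.81-fold lower signal, with a 95% interval of -1.86 to -1.12 and an adjusted p of 0.0030 in limma, and it was -1.55 on slide 1 and -1.38 on slide 2.

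Mt2, which is induced by metals together with Mt1, was lower by a smaller step. Its levels were 6.17, 6.23 and 6.03 in C57BL/6J and 5.50, 5.58 and 5.46 in BTBR. The strains did not overlap and the mice of each strain lay close together. The difference was -0.63 ± 0.11 (SE), a 1.55-fold lower signal, with a limma adjusted p of 0.0218, and it was -0.66 and -0.57 on the slides.

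Mt1 had a probe printed in 10 spots, with levels of 6.01, 6.19 and 6.29 in C57BL/6J and 5.90, 5.84 and 5.83 in BTBR. All BTBR mice were below all C57BL/6J mice, but the difference of -0.31 ± 0.11 did not pass the test (limma adjusted p = 0.237). A second Mt1 probe had levels of -0.88, -1.55 and -1.62 in C57BL/6J and -1.49, -0.71 and -1.59 in BTBR. These overlapped fully, with a difference of 0.09 ± 0.30 (limma adjusted p = 0.937).

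The calls of Gfap variant 1, Mt3 and Mt2 did not hold with another background correction. With normexp in place of the scanner's own subtraction the differences were -1.15, -1.39 and -0.52, and the adjusted p rose to 0.132, 0.0887 and 0.334. That setting called 170 of all probes instead of 1632 and 0 of the 62 members, 6 of which had an unadjusted p under 0.05. Leaving out C57BL/6J 1, BTBR 1 or BTBR 2 took Gfap variant 1 to a limma adjusted p of 0.0585, 0.0741 or 0.0558. Mt2 stayed past the test only when C57BL/6J 3 was the mouse left out. Mt3 stayed past it whichever 1 mouse was left out.

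The metallothionein genes stand beside each other on chromosome 8, so their promoters and neighbours were compared. The 250 bases before each start site are printed because Mt2 and Mt3 were called lower and Mt1 was not. They come from RefSeq on GRCm38.p6, whose sequence is that of C57BL/6J, with all 3 genes on the plus strand; 30 of the 35 members had an entry. Capitals mark the core of the metal response element, the site bound by the zinc-sensing factor MTF1, searched on both strands as TGCACNC and TGCGCNC.
Mt1, chr8:94178839-94179088: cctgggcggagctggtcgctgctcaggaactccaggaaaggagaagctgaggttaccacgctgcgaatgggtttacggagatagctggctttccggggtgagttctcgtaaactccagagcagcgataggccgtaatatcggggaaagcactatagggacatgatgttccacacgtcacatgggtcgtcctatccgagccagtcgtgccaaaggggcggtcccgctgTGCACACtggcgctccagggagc
Mt2, chr8:94172368-94172617: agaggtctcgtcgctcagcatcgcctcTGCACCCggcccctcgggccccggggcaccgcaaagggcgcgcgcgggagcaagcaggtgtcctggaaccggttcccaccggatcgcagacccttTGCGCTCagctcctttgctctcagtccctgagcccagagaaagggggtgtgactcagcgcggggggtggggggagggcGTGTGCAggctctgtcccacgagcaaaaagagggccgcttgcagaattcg
Mt3, chr8:94152357-94152606: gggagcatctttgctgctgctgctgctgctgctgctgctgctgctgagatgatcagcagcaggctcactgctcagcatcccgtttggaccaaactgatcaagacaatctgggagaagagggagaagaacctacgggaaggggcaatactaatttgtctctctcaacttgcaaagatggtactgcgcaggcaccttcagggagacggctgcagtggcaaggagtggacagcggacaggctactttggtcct
Mt1 had 1 core in this window, 23 bases before the start, and Mt2 had 3, at 223, 128 and 50 bases, the last on the minus strand. Mt3 had none of these letters in the window. Of 32851 tabulated promoters, 10.4% held the first form, 12.5% the second and 21.4% either. The STAT motif TTCNNNGAA, the kind of site STAT3 binds, was in 7.02% of promoters and in none of the windows of Gfap, Mt1, Mt2 or Mt3. These matches describe the reference sequence and not the binding of a factor. Cores after the tabulated start, or further before it than 250 bases, were not searched. The counts therefore do not say which of the genes holds more cores.

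Probes of the genes next to the metallothioneins were not called. Mt4, a metallothionein of stratified epithelium, differed by -0.06 at its tested probe, and its other probe was not bright enough to test. Bbs2, a gene of the primary cilium, differed by -0.01. Nup93, a nuclear pore gene, differed by -0.18, and the Ogfod1 probes by 0.40 and 0.39 in the other direction (limma adjusted p = 0.294 and 0.305).

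The reactive genes as a group had 13 tested probes for 7 genes, Gfap among them. Of these 1 was called, Gfap variant 1, and 12 were not. At 5 of the 13 the mean was higher in BTBR and at 8 lower, with a median of -0.06, and 4 had an unadjusted p under 0.05. The median was -0.07 on slide 1 and -0.58 on slide 2, which held 1 mouse of each strain. The strains did not overlap at 5 probes that were lower and 1 that was higher. Over all tested probes they did not overlap at 22.8%, with 11.9% higher and 11.0% lower in BTBR. The 5 lower ones were the 3 Gfap probes, Nes and 1 Timp1 probe.

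Vim, which codes for vimentin, the filament protein that pairs with GFAP in reactive cells, had nearly the same level in both strains. Its tested probe read 1.40, 1.44 and 1.15 in C57BL/6J and 1.27, 1.43 and 1.11 in BTBR. The mice overlapped fully. The difference was -0.06, with a 95% interval of -0.39 to 0.27 (limma adjusted p = 0.896).

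Nes, which codes for nestin, a filament protein of progenitors and reactive astrocytes, read -0.11, -0.08 and 0.28 in C57BL/6J and -0.30, -0.17 and -0.41 in BTBR. Every BTBR mouse was lower, but the difference of -0.32 ± 0.15 did not pass (limma adjusted p = 0.342). Timp1, an inhibitor of matrix metalloproteinases, had differences of -0.55 and -0.22 at its probes, neither called, and the first was well above background in 2 of the 3 BTBR mice.

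Stat3, the transcription factor of the reactive response, read 2.20, 2.17 and 2.27 in C57BL/6J and 2.15, 2.30 and 2.07 in BTBR at its brighter probe. These overlapped, with a difference of -0.04 and a 95% interval of -0.30 to 0.22. A dimmer probe read -5.74, -5.39 and -5.67 against -5.22, -5.19 and -5.32. It was higher in every BTBR mouse by 0.35 ± 0.13 on average and did not pass (limma adjusted p = 0.235). Osmr, the receptor for oncostatin M that signals to STAT3, differed by 0.05 and 0.03.

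Cd44, the hyaluronan receptor found on fibrous and reactive astrocytes, had opposite differences on the 2 slides. Its tested probes read -3.84, -3.59 and -3.11 in C57BL/6J and -2.86, -2.51 and -3.85 in BTBR at one, and -4.57, -4.57 and -3.82 against -3.58, -3.61 and -4.44 at the other. The first 2 mice of each strain were on slide 1, where BTBR was higher by 1.03 and 0.98, and the third mice were on slide 2, where BTBR was lower by 0.74 and 0.62. Over all 6 mice the differences were 0.44 and 0.45, with limma adjusted p of 0.651 and 0.574. Within slide 1 alone both passed, at 0.0424 and 0.0180.

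**Figure D2:**
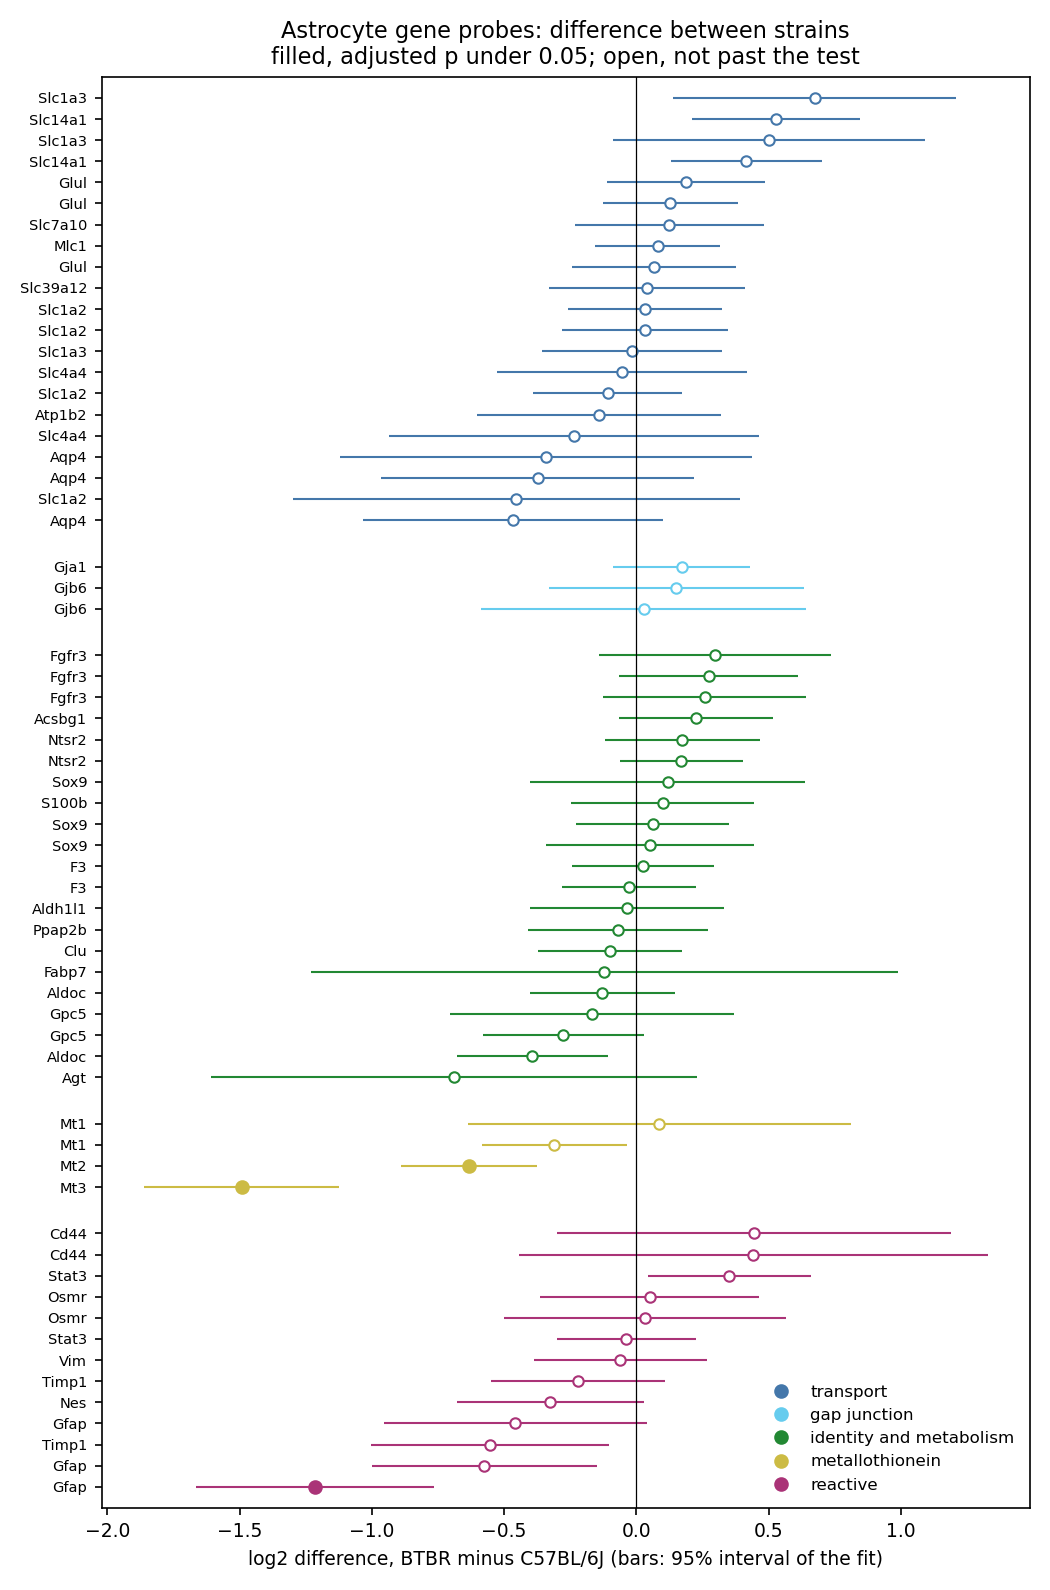
Difference between strains (horizontal axis, log2, BTBR minus C57BL/6J) for the 62 tested probes, 1 row per probe, with the 95% interval of the limma fit and a colour for each role. The 3 filled points, Gfap variant 1, Mt2 and Mt3, passed the test; the homeostatic probes lie on both sides of 0.

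The homeostatic genes showed no called difference. They had 45 tested probes for 25 genes, of which 0 passed limma's adjusted threshold and 4 had an unadjusted p under 0.05. The mean was higher in BTBR at 26 and lower at 19, with a median of 0.03 (0.06 on slide 1 and 0.03 on slide 2). In size 35 of the 45 differences were under 0.3, and 41 of the 95% intervals included 0. The strains did not overlap at 6 probes that were higher and 2 that were lower. Over all 30011 tested probes the mean was higher in BTBR at 17152 and lower at 12859. There the strains did not overlap at 11.9% that were higher and 11.0% that were lower. Whether homeostatic and reactive genes differed from each other was not tested, and their counts and medians are given side by side.

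Of the glutamate handling genes, Slc1a2, which codes for the main glutamate transporter GLT-1, had 4 probes. The brightest read 5.04, 5.22 and 4.94 in C57BL/6J and 5.16, 5.21 and 4.93 in BTBR, a difference of 0.03 with a 95% interval of -0.28 to 0.35. The mice overlapped there and at the 2 probes with differences of -0.11 and 0.03. The first of these read 3.57, 3.52 and 3.80 in C57BL/6J and 3.57, 3.53 and 3.47 in BTBR. The second read 1.34, 1.39 and 1.56 against 1.61, 1.36 and 1.42. The remaining probe read 2.08, 1.73 and 2.29 against 1.60, 2.26 and 0.88. It spread widely within both strains, and its difference of -0.45 ± 0.35 was 0.03 on slide 1 and -1.41 on slide 2.

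Slc1a3, which codes for the glutamate transporter GLAST, read 3.92, 3.91 and 3.67 in C57BL/6J and 3.81, 4.01 and 3.63 in BTBR at its main probe. The difference was -0.02, with a 95% interval of -0.36 to 0.33. Of its other probes one read -1.86, -2.37 and -2.29 against -1.43, -1.18 and -1.88, a difference of 0.67 ± 0.22, and one read -4.24, -4.64 and -4.24 against -3.56, -3.67 and -4.38, a difference of 0.50 ± 0.25. Both overlapped between strains and neither passed (limma adjusted p = 0.187 and 0.384), so the probes of this gene did not give 1 value.

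Glul, which codes for glutamine synthetase, read 6.01, 5.96 and 5.78 in C57BL/6J and 6.05, 6.04 and 6.04 in BTBR at its brightest probe. Every BTBR mouse was above every C57BL/6J mouse by a small margin, and the difference was 0.13 with a 95% interval of -0.13 to 0.39. The other Glul probes read 1.61, 1.65 and 1.86 against 1.98, 1.95 and 1.75, and 0.88, 0.97 and 0.74 against 1.09, 0.78 and 0.92. They overlapped, with differences of 0.19 and 0.07. None of the Glul probes passed the test.

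Among the water, ion and solute transport genes, Slc14a1, which codes for the urea transporter UT-B, came closest to being called higher. Its first probe read 0.68, 0.59 and 0.40 in C57BL/6J and 1.18, 1.17 and 0.91 in BTBR, and its second read -1.88, -1.71 and -1.92 against -1.28, -1.45 and -1.52. Every BTBR mouse was above every C57BL/6J mouse at both. The differences were 0.53 ± 0.13 (limma adjusted p = 0.0843) and 0.42 ± 0.12 (limma adjusted p = 0.126), and they were alike on slide 1 (0.54 and 0.43) and slide 2 (0.51 and 0.40). The first passed the test with the authors' matrix (0.0398), with an intensity trend in the prior (0.0420) and with slide as a block (0.0455).

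Aqp4, the water channel of the astrocyte end-foot, had 3 probes. The brightest read 1.08, 1.16 and 1.64 in C57BL/6J and 0.84, 1.19 and 0.45 in BTBR. The second read -0.31, -0.03 and 0.46 against -0.27, -0.05 and -0.68, and the third read -0.85, -0.34 and -0.12 against -0.69, -0.25 and -1.39. All 3 overlapped between strains, with the third mouse of each strain at opposite ends. The differences of -0.47, -0.37 and -0.34 did not pass (limma adjusted p = 0.403, 0.547 and 0.700). On slide 1 they were -0.11, 0.01 and 0.12, and on slide 2, with 1 mouse per strain, -1.19, -1.14 and -1.27.

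The remaining transport genes lay near 0. Mlc1, the membrane protein mutated in a vacuolating leukodystrophy, differed by 0.08, Slc7a10, the serine and glycine transporter Asc-1, by 0.12, and Slc39a12, the zinc importer ZIP12, by 0.04. Atp1b2, a sodium pump subunit of glia, differed by -0.14, and Slc4a4, the sodium bicarbonate cotransporter, by -0.24 and -0.05. All of these overlapped between strains.

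Of the gap junction genes, Gja1, which codes for the main connexin of astrocytes, read -0.88, -0.74 and -0.80 in C57BL/6J and -0.53, -0.66 and -0.72 in BTBR. Every BTBR mouse was slightly above every C57BL/6J mouse, and the difference of 0.17 ± 0.11 did not pass (limma adjusted p = 0.520). Gjb6, which codes for a second astrocyte connexin, differed by 0.15 and 0.03 at its probes.

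Of the identity genes, Aldh1l1, a folate enzyme that marks astrocytes throughout the brain, read 3.25, 3.42 and 3.08 in C57BL/6J and 3.29, 2.98 and 3.38 in BTBR. The mice overlapped fully and the difference was -0.04, with a 95% interval of -0.40 to 0.33. S100b, a calcium-binding protein of astrocytes, read 5.44, 5.75 and 5.60 against 5.80, 5.81 and 5.48. These overlapped too, with a difference of 0.10 and an interval of -0.25 to 0.45.

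The other identity and metabolism genes were between -0.69 and 0.30, with none called. The probes of Fgfr3, a growth factor receptor of astrocytes, differed by 0.27, 0.26 and 0.30, and those of Sox9, a transcription factor of astrocyte fate, by 0.05, 0.06 and 0.12. Acsbg1, a long-chain acyl-CoA synthetase, differed by 0.22 and Ntsr2, a neurotensin receptor, by 0.17 at both probes. Aldoc, the brain aldolase, differed by -0.39 ± 0.12 at one probe, where all BTBR mice were lower (limma adjusted p = 0.145), and by -0.13 at the other. Gpc5, a heparan sulphate proteoglycan, differed by -0.28 and -0.17, Clu, the secreted chaperone clusterin, by -0.10, F3, tissue factor, by -0.03 and 0.03, and Ppap2b, now named Plpp3, a lipid phosphatase, by -0.07.

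Several members differed more between mice of 1 strain than between strains. Some of these were highest in the mice with the highest levels of striatal markers. Markers of striatal projection neurons, which the prefrontal cortex should hold few of, had 11 tested probes, all of whose genes were above background. Their median deviation from the 6-mouse mean was 2.58 in C57BL/6J 3 and 0.74 in BTBR 2, and it lay between -1.39 and -0.24 in the other 4 mice. Agt, which codes for angiotensinogen, made mainly by astrocytes in the brain, read 1.01 in C57BL/6J 3 and between -0.78 and -0.15 in the other mice. It was not raised in BTBR 2, which read -0.21, below C57BL/6J 1 at -0.15. Fabp7, the brain fatty acid binding protein, read 2.54 in BTBR 2, 1.83 in C57BL/6J 3 and 0.70 to 1.51 in the others.

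C57BL/6J 3 and BTBR 2 were the highest 2 mice at 9 of the 62 member probes (14.5%), against 9.07% of all tested probes. Whether these shares differ was not tested. The 9 were 2 probes each of Aqp4 and Osmr and 1 each of Fabp7, Ppap2b, Slc1a2, Slc4a4 and Stat3. Whether striatal tissue took part in these values was not tested. Gfap variant 1 was also highest in C57BL/6J 3, but with C57BL/6J 3 and BTBR 2 left out its difference was -1.03 (limma adjusted p = 0.0356). Mt3 then differed by -1.33 (limma adjusted p = 0.0269) and Mt2 by -0.72 (limma adjusted p = 0.0584), so Mt2 was no longer called.

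**Figure D3:**
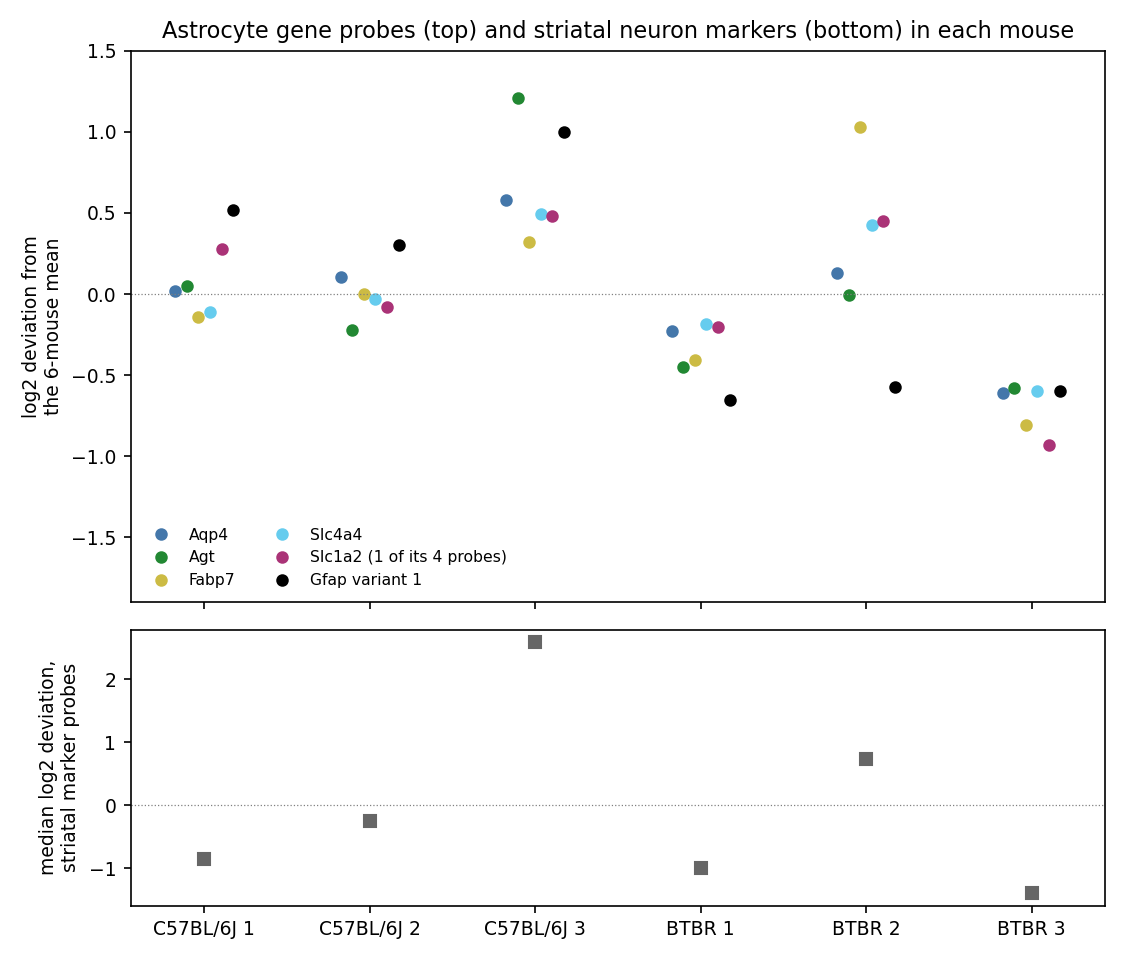
Top, log2 deviation of 6 astrocyte gene probes from their 6-mouse mean; bottom, median deviation of 11 striatal marker probes, both by mouse. Aqp4, Agt, Fabp7, Slc4a4 and 1 probe of Slc1a2 have their highest value in C57BL/6J 3 or BTBR 2. Gfap variant 1 is also highest in C57BL/6J 3, and it is low in all 3 BTBR mice.

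Markers of other cells were read beside Gfap and the metallothioneins. Oligodendrocyte markers had lower means in BTBR at 18 of 19 probes, 6 of them called, with a median of -0.64. The median deviation of that list was 0.07 to 0.49 in the C57BL/6J mice and -0.44 to -0.18 in the BTBR mice, so it was separated between strains as Gfap and Mt3 were. The 14 tested probes of neural progenitor and neuroblast markers had higher means in BTBR at 12, none called, with list deviations of -0.24 to -0.12 in C57BL/6J and -0.11 to 0.65 in BTBR. Their part in the differences of Gfap, Mt2 and Mt3 was not tested.

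The deviations of the other marker lists overlapped between strains. Neuron markers had a median difference of 0.04 over 23 probes, with 1 called lower, and microglia markers -0.03 over 15, with 1 called higher and 4 lower. Endothelial and pericyte markers had a median of -0.11 over 17 probes, oligodendrocyte precursor markers -0.03 over 12 and meningeal fibroblast markers -0.29 over 11, none called. Ependymal markers had a median of -0.63 over 10, with 1 called in each direction. Their median was -1.10 on slide 1 and 0.80 on slide 2. Choroid plexus markers reached a deviation of 2.63 in 1 C57BL/6J mouse and had a median difference of -0.69 over 6 probes, none called. Their median difference was -1.29 on slide 1 and 0.77 on slide 2. Ttr and Otx2 of that list were well above background on 2 of the 6 arrays, too few to be tested. Tctex1d4 of the ependymal list and Top2a of the progenitor list were at background on all 6 arrays.

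Genes of the same pathways outside the 35 were counted from lists that were chosen with earlier results of these data known. Of 50 tested probes of 34 other homeostatic astrocyte genes, 2 were called higher and 3 lower, with a median of 0.0045. The called ones were probes of Slc15a2, a peptide transporter, at -3.09 and 1.34, so this gene's probes went in opposite directions; Slco1c1, a thyroid hormone transporter, at 0.68; and Id4, an inhibitor of helix-loop-helix factors, at -1.70 and -1.64. Grm3, a metabotropic glutamate receptor, differed by -0.65 without passing (limma adjusted p = 0.0631).

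Of 38 tested probes of other reactive astrocyte genes, 1 was called higher and 2 lower, with a median of -0.12. In limma 13 of the 38 had an unadjusted p under 0.05, against 16.8% of all tested probes. The strains did not overlap at 12 probes that were lower and 4 that were higher, against 11.0% and 11.9% of all. Because the list was chosen with earlier results of these data known, these counts do not test it. The list's median deviation was 0.03 to 0.13 in the C57BL/6J mice and -0.10 to -0.0029 in the BTBR mice. The one called higher was Serpina3n, a serine protease inhibitor secreted by reactive astrocytes, at 3.70 ± 0.23 (SE) (limma adjusted p = 0.00039). Tm4sf1, a tetraspanin-like membrane protein, fell by 0.70 and Gbp2, an interferon-induced GTPase, fell by 0.63. Cxcl10, an interferon-induced chemokine, differed by -2.87 with a wide spread and did not pass (limma adjusted p = 0.0655). Of the other markers of reactive astrocytes, Steap4, Ptx3, B3gnt5, Tgm1 and Slc10a6 were at background on all 6 arrays, and Lcn2 was well above it on 2, too few to be tested.

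The STAT3 pathway of reactive astrocytes had no called probe. Of 27 tested probes of STAT3 and gp130 signalling genes 0 passed limma's adjusted threshold and 3 had an unadjusted p under 0.05, with a median of 0.04. The smallest p belonged to Jak2, the kinase upstream of STAT3, at 0.37, Il6st, which codes for gp130, at -0.35, Lifr, the leukaemia inhibitory factor receptor, at 0.45 at 1 of its 5 probes, and Cntf, a ligand of this family, at 0.28. Il6 was well above background on 2 of the 6 arrays, too few to be tested.

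The genes that handle the metals bound by metallothioneins had 16 tested probes, with 1 called lower and a median of -0.03. That was a probe of Slc30a10, a manganese exporter, at -1.79 (limma adjusted p = 0.0014), while its other probe differed by 0.69 in the opposite direction without passing. Atp7b, a copper pump, differed by 0.60 and Slc30a3, which loads zinc into synaptic vesicles, by 0.36, neither called. Mtf1, which codes for the factor that binds metal response elements, differed by -0.31 and -0.17, neither called.

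**Figure D4:**
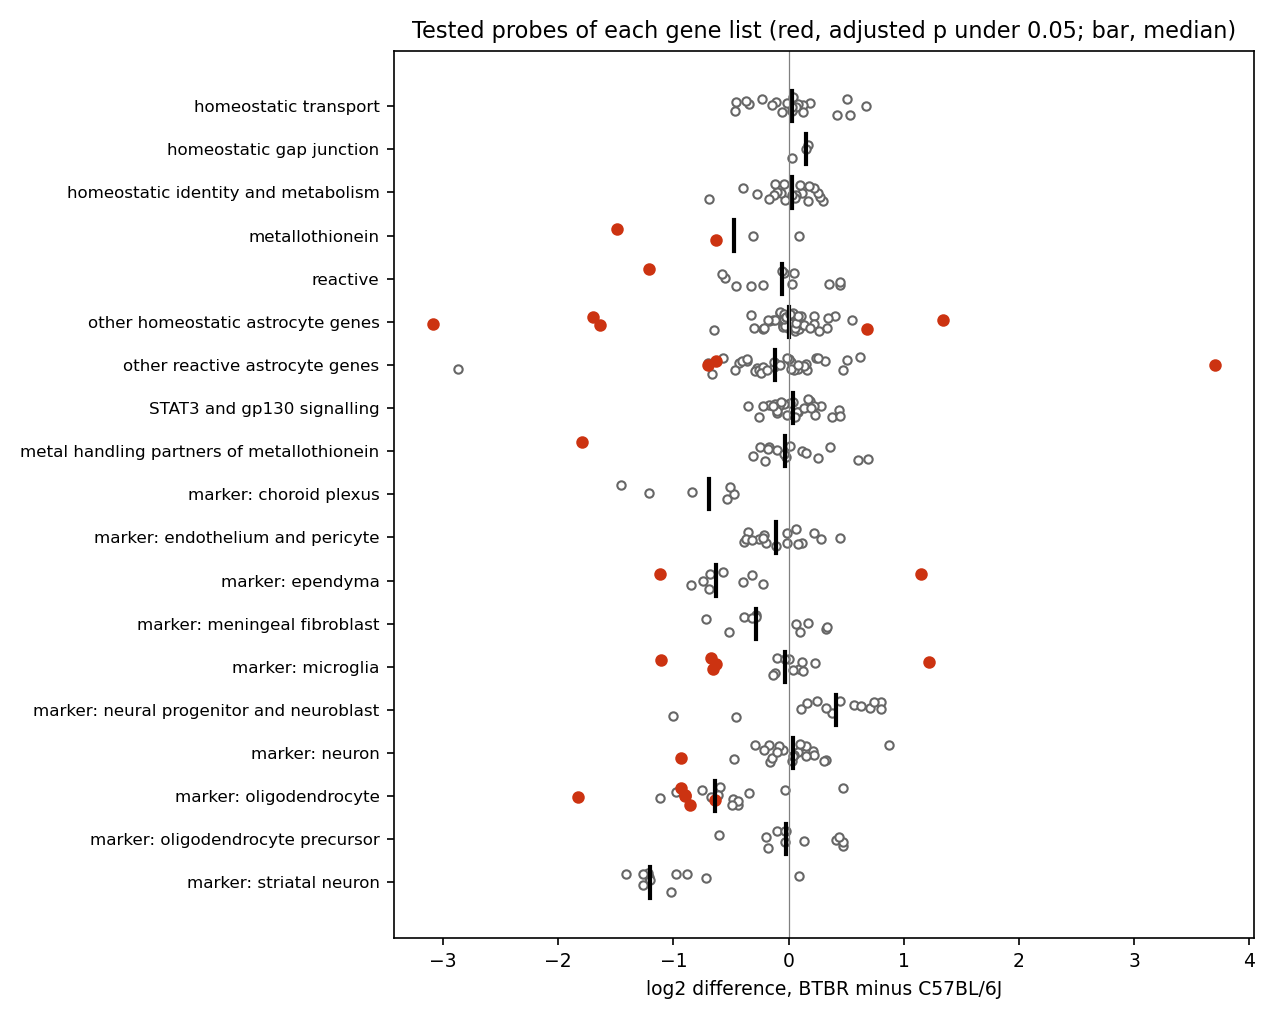
Difference between strains (horizontal axis, log2, BTBR minus C57BL/6J) of each tested probe in the 5 groups of astrocyte genes, the 4 lists of related genes and the 10 lists of cell type markers, with the median of each list as a black bar and called probes in red. The homeostatic groups lie around 0, the metallothionein median is -0.47, and the oligodendrocyte and striatal marker medians are -0.64 and -1.21. The oligodendrocyte median was -0.73 on slide 1 and -0.51 on slide 2. The striatal median was 0.37 on slide 1 and -4.00 on slide 2, with 0 probes called.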

How the data were processed

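Whole prefrontal cortex of 6 mice was measured on 6 one-colour arrays. The deposited scanner files give each spot's intensity on a linear scale, with Agilent's background-subtracted signal, per the file headers, which name Agilent Feature Extraction 10.7.3.1 (9.1 per the submitters' processing notes). The authors' matrix holds log2 values with no statement of scaling or centring; their medians were 8.82 to 8.83. Their strain differences had a slope of 0.374 and a correlation of 0.792 against scanner differences over the tested probes. The authors' values served only as an alternative.

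Spots of a probe were averaged, spots with an outlier flag (54 to 107 per array) being left out where another existed, and each array's 75th percentile was subtracted from log2 of the processed signal. A probe entered when well above background on at least 3 of 6 arrays. On each array 28101 to 30665 of 41174 probes (68.2% to 74.5%) stood above background, none was saturated, and arrays of a strain correlated at 0.984 to 0.993. The number of arrays limits the precision. The strain comparison used lmFit and eBayes of limma 3.58.1, under R 4.3.3 with data.table (1.17.8), Benjamini-Hochberg over 30011 probes, and was tested first on simulated data. No probe was merged with another. The sequence of 1 Gfap probe is not reported here.

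Members with a called probe, and 13 genes fixed by name, are given in every mouse, others by their differences, and related lists by counts and up to 4 genes with the smallest p. Nes, Slc14a1, Cd44, Agt and Fabp7 are shown in more detail and were chosen after their values were seen. The members and lists were chosen with earlier results of these data known. Alternatives covered background correction, scaling, the filter, probes per gene, outlier flags, the authors' values, the prior, slide and replicate blocks and leaving out mice.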

Additional observations from a re-analysis of the deposited data

How the results depend on the processing

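All 3 called probes were lower in BTBR under each of the 18 alternatives. Gfap variant 1 passed the test in 14 of them, with adjusted p from 0.0044 to 0.132 in limma, Mt3 in 17 (0.00038 to 0.0887) and Mt2 in 9 (0.0025 to 0.334). The 59 uncalled probes were recomputed 1033 times in all and passed 5 times: Slc14a1 in 3 settings, and 2 Cd44 probes within slide 1.

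The count of called member probes, 3, became 0 with normexp and 5 within slide 1, and was 1 to 3 when 1 mouse was left out. The count over all probes, 1632, became 170 with normexp, 1083 with the brightest probe per gene, which tests fewer features, 1008 without C57BL/6J 3 and BTBR 2 together, a setting chosen after seeing the data, and 858 to 1472 without 1 mouse. Normexp moved the median of all probes from 0.04 to -0.09 and the share of calls that were lower from 59.7% to 74.1%; the cause of the lost calls was not tested. With no filter on dim probes Mt2 had an adjusted p of 0.0581.

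The replicate numbers did not pair the mice: correlations of same-numbered mice were 0.03, -0.17 and -0.08. With the replicate block 922 probes were called, and 2 of the members, Gfap variant 1 (0.0449) and Mt3 (0.0177), with Mt2 at 0.104. With 3 mice per strain, differences smaller than the intervals given cannot be seen, and slide 2 held 1 mouse of each strain, which gives no test there.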
